A study of Homo sapiens with 24 samples.

Results

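The kinases and cyclins that phosphorylate RNA polymerase II, together with HEXIM1, were followed across an inhibitor dose series in a pair of osteosarcoma cell lines. The genes were CDK7, CDK9, CDK12, CDK13, CCNK, CCNH, MNAT1, CCNT1, CCNT2 and HEXIM1, taken as a list of names. Each probe set (a group of short oligonucleotide probes read as 1 value) whose only gene symbol was one of these 10 genes was kept on its own. This gave 10 of 18132 genes and 26 of the 49293 probe sets on the array, with 6 for CDK12, 5 for HEXIM1, 3 each for CDK9, CCNT2 and CDK13, 2 for CCNK and 1 each for CDK7, CCNH, MNAT1 and CCNT1. Both U2-OS and SJSA-1 are established lines from human osteosarcoma, and total RNA was hybridised to Affymetrix PrimeView arrays after 6 h with DMSO, the solvent control, or with 50, 200 or 800 nM THZ531, a covalent inhibitor of CDK12 and CDK13. The 8 groups (U2-OS or SJSA-1 with DMSO, 50, 200 or 800 nM THZ531) held 3 arrays each. The labels name no transgene, deletion or clone in either line, and both grew in Dulbecco's modified Eagle medium with fetal bovine serum. Whether separate cultures stand behind the 3 arrays of a group is not stated in the labels, so the p-values cover the spread among those arrays, and that spread may be technical.

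RNA polymerase II carries a long repeated tail, the C-terminal domain (CTD), whose phosphorylation marks the steps of transcription. CDK7 with cyclin H (CCNH) and the assembly factor MNAT1 forms the kinase module of the initiation factor TFIIH, while CDK9 with cyclin T1 or T2 (CCNT1, CCNT2) forms P-TEFb, which releases the paused polymerase into elongation. HEXIM1 binds the 7SK small nuclear RNA and holds P-TEFb in an inactive complex, and CDK12 and CDK13, each paired with cyclin K (CCNK), phosphorylate the tail during elongation.

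HEXIM1, the cyclin genes CCNT1, CCNT2 and CCNK, and CDK12 had the dose patterns described below, and the 250 bases upstream of an annotated start site of each are shown so that the sequence stands beside the RNA values. The sequences are RefSeq's, on GRCh38.p14, and all 10 genes had an entry. They lie at chr17:45148225-45148474, plus strand for HEXIM1, chr12:48716708-48716957, minus strand for CCNT1, chr2:134918572-134918821, plus strand for CCNT2, chr14:99481159-99481408, plus strand for CCNK and chr17:39461236-39461485, plus strand for CDK12. Capitals mark the matches, on either strand, to 6 motifs: the TATA box TATAAA, the CCAAT box CCAAT, the GC box GGGCGG, the ETS motif CCGGAAGT, the CRE motif TGACGT and the E-box CACGTG.
HEXIM1: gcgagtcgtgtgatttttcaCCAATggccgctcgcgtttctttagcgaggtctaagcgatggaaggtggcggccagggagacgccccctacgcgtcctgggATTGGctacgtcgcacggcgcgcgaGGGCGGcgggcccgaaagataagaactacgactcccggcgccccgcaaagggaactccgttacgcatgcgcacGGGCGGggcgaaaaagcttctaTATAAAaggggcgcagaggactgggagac
CCNT1: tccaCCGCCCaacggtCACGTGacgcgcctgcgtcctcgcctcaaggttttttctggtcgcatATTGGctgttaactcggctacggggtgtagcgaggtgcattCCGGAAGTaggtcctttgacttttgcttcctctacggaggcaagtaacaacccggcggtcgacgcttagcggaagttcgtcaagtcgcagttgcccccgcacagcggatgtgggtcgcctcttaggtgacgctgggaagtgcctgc
CCNT2: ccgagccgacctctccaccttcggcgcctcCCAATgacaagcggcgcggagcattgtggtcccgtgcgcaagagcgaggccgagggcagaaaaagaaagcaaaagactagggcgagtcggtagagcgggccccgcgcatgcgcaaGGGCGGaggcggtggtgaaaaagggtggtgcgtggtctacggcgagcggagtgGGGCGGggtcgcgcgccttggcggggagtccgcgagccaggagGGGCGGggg
CCNK: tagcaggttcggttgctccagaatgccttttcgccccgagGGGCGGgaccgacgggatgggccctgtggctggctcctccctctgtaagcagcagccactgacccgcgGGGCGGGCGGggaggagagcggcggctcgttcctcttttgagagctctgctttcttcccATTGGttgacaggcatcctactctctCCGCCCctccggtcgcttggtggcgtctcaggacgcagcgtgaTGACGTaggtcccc
CDK12: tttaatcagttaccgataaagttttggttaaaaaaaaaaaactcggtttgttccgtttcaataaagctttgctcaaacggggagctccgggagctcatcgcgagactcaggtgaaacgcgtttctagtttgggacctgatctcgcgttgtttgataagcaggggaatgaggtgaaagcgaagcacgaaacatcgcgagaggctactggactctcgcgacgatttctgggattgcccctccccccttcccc

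HEXIM1 held 1 TATA box, with 23 bases between it and the start site, along with 2 CCAAT boxes and 2 GC boxes. Of the 10 genes, HEXIM1 was the one with a TATA box in this window, and 10.7% of 35116 RefSeq promoters hold those letters. The cyclin genes CCNT1, CCNT2 and CCNK each held 1 CCAAT box (in 32% of all promoters) and at least 1 GC box (42.6%). CCNT1 has a second annotated start, whose window, with 29.6% G and C, is not shown and held none of the 6 motifs. CCNT1 also held an ETS motif (3.42%) and an E-box (6.34%), and CCNK a CRE motif (7.1%). A pair of the 4 GC boxes of CCNK shares 2 bases and reads as 1 run of capitals. The CDK12 window, with 48.8% G and C against 62.4% for HEXIM1, held none of the 6 motifs. A match is a description of the letters only.

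All levels below are log2(value + 1) of the deposited intensities, a change is the difference of group means on that scale, and an adjusted p comes from limma with Benjamini-Hochberg adjustment over all 49293 probe sets. A probe set was called when its adjusted p was under 0.05, and was termed active in a line when its DMSO mean exceeded log2(100). Of the 26 probe sets, U2-OS had 14 active ones and SJSA-1 had 10. Each gene is led by the probe set that was brightest on average over all 24 arrays, termed its leading probe set. The leading probe set of CCNT2 was active in neither line and those of CCNT1 and CDK13 not in SJSA-1, so their values there come from dim probe sets. Suffixes in probe set names matter here: _a_at marks probes shared by transcripts of 1 gene, _s_at probes that match several transcripts of 1 or more genes, and _x_at a set with probes that can match other transcripts in part. RNA of a whole culture was measured, so fewer cells with a transcript and less RNA of it per cell cannot be told apart.

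Across the series, array medians lay between 30.1 and 33.6 in intensity, and MDM2 and CDK4, amplified in SJSA-1, were 11.1-fold and 3.36-fold higher there in DMSO. The extraction text of the labels speaks of cortex tissue and another kit than the TRIzol of the methods. Of 9 neuronal and glial markers measured, U2-OS had 1 active and SJSA-1 had 0, beside 3 and 0 of 8 osteoblast markers and 0 and 0 of 7 leukocyte and endothelial markers. The 24 poly-A control probe sets, which read RNA added before labelling, stood in DMSO at 5.18 for U2-OS and at 6.06 for SJSA-1. At 50, 200 and 800 nM they were above these levels by 0.10, 0.53 and 0.91 (U2-OS) and by 0.50, 0.46 and 0.53 (SJSA-1). One U2-OS array at 50 nM, replicate 3, had a poly-A level of 5.66 against 5.16 and 4.99 in the other 50 nM arrays. Setting each array to these controls moved the median change of all probe sets from about 0 to -0.10, -0.51 and -0.90 in U2-OS and to -0.46, -0.38 and -0.47 in SJSA-1. Rises and falls below are therefore relative to the other probe sets of the array, and the value after this poly-A shift is printed beside each called change of a leading probe set that turns. The 18 hybridization controls, added after labelling, differed from DMSO by -0.18, -0.10 and -0.06 (U2-OS) and by 0.22, 0.18 and 0.20 (SJSA-1). The part of these controls in the results was not tested.

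In the untreated lines, CCNH, MNAT1, CDK12 and CCNK stood higher in SJSA-1 and HEXIM1 lower. CCNH was at 8.51, 8.59 and 8.48 in U2-OS and 9.23, 9.32 and 9.31 in SJSA-1, a difference of 0.76 ± 0.071 (SE; adjusted p = 3.09e-09). CCNK differed by 0.61, CDK12 by 0.67, MNAT1 by 0.43 and CDK7 by 0.17 in the same direction (adjusted p = 1.22e-08, 4.06e-07, 3.62e-07 and 0.00835). HEXIM1 was at 8.88, 8.93 and 9.01 in U2-OS and 8.15, 8.13 and 8.18 in SJSA-1, a difference of -0.79 ± 0.075 (adjusted p = 3.33e-09), and its other 4 probe sets differed by -1.16 to -0.57. CDK9 differed by -0.19 (adjusted p = 0.023), while CCNT1 (-0.12), CCNT2 (-0.14) and CDK13 (-0.25) were not called. Of the 26 probe sets 17 were called, 9 higher and 8 lower in SJSA-1, beside 55.6% of all probe sets (27.3% higher and 28.3% lower). After the poly-A shift 0 were called higher and 21 lower, and the 5 higher values above became -0.13 for CCNH, -0.27 for CCNK, -0.21 for CDK12, -0.45 for MNAT1 and -0.71 for CDK7. The CDK7 difference was 0.14 (adjusted p = 0.0551) without SJSA-1 DMSO replicate 3, and the CDK9 difference lost its call without U2-OS DMSO replicate 3 or SJSA-1 DMSO replicate 1 or 2, with values of -0.19 to -0.14.

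Under THZ531 the probe sets of these genes were mostly called higher in U2-OS and mostly lower in SJSA-1 at 200 and 800 nM, relative to the other probe sets. By leading probe set, SJSA-1 had 1 of 10 genes higher and 5 lower at both doses. Of all 18132 genes, 32.4% and 23.7% were higher there and 22.7% and 20.7% lower. The 10 probe sets active in SJSA-1 gave 3 higher and 3 lower calls at both doses. In U2-OS 6 and 8 leading probe sets were higher and 1 lower at each dose, beside 8.64% and 14% higher and 12.9% and 20.7% lower. In U2-OS 1 of 26 was called at 50 nM (1 higher, 0 lower), 17 at 200 nM (16 and 1) and 22 at 800 nM (20 and 2), beside 1.13%, 20% and 34.3% of all probe sets. In SJSA-1 21 were called at 50 nM (13 higher, 8 lower), 20 at 200 nM (6 and 14) and 21 at 800 nM (6 and 15), beside 38.2%, 51.1% and 43.5%. Among all probe sets 0.538%, 8.2% and 15.5% were called higher in U2-OS at the 3 doses, against 0.588%, 11.8% and 18.8% lower. For SJSA-1 these shares were 17.9%, 30.1% and 24.8% higher, against 20.2%, 21% and 18.7% lower. The median change of the 26 was 0.05, 0.28 and 0.63 in U2-OS, against 0.00, 0.02 and 0.01 over all probe sets. In SJSA-1 it was 0.15, -0.22 and -0.40, against 0.04, 0.08 and 0.06. The 3 treated arrays did not overlap the 3 DMSO arrays for 6, 19 and 24 of the 26 in U2-OS (15.3%, 31.5% and 46.6% of all probe sets) and for 25, 22 and 25 in SJSA-1 (47.8%, 57.7% and 51.8%). The 3 doses of a line share their DMSO arrays, so the counts at different doses are not independent. After the poly-A shift the higher and lower calls were 0 and 0, 1 and 9, and 4 and 12 in U2-OS, and 7 and 13, 4 and 18, and 3 and 20 in SJSA-1 at the rising doses. The heat map of changes shows each probe set in each line.

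**Figure D1:**
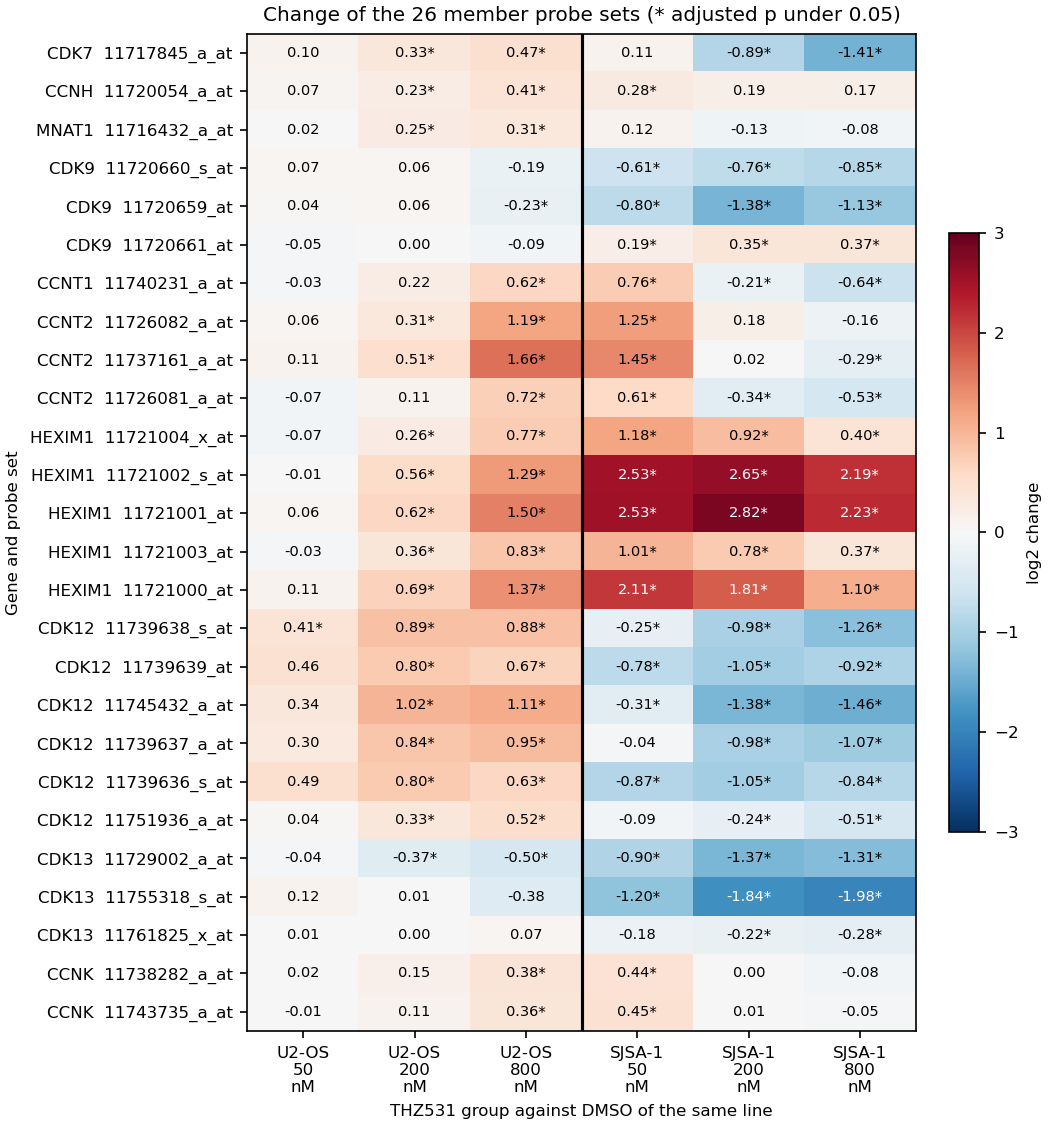
Log2 change against DMSO of all 26 probe sets (lines of the map, grouped by gene) at 50, 200 and 800 nM THZ531 in U2-OS and SJSA-1, with the colour and the printed value giving the change and a star the calls at an adjusted p under 0.05. In U2-OS 20 of 26 were called higher at 800 nM, and in SJSA-1 15 of 26 were called lower; after the poly-A shift 12 of the U2-OS probe sets were called lower.

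CDK7, the catalytic kinase of the TFIIH module, fell in SJSA-1 at 200 and 800 nM and rose in U2-OS at those doses, where the poly-A shift turned the sign. In U2-OS the arrays read 8.83, 8.73 and 8.80 in DMSO, 8.87, 8.87 and 8.92 at 50 nM, 9.10, 9.11 and 9.15 at 200 nM and 9.30, 9.26 and 9.21 at 800 nM. In SJSA-1 they read 8.92, 8.93 and 9.03 in DMSO, 9.08, 9.06 and 9.08 at 50 nM, 8.11, 8.12 and 8.01 at 200 nM and 7.53, 7.65 and 7.48 at 800 nM. The SJSA-1 arrays at 200 and 800 nM lay below every other array of that line, and the U2-OS arrays at those doses lay above the U2-OS DMSO arrays. The change in SJSA-1 was -0.89 ± 0.062 (SE) at 200 nM and -1.41 ± 0.062 at 800 nM (adjusted p = 4.32e-08 and 3.48e-10), which is 2.66-fold lower at 800 nM. In U2-OS the change was 0.33 at 200 nM and 0.47 at 800 nM (adjusted p = 0.000654 and 1.1e-05), and -0.20 and -0.44 after the poly-A shift. At 50 nM U2-OS differed from DMSO by 0.10 and SJSA-1 by 0.11, neither called, and the latter became -0.38 with the poly-A shift and was then called lower (adjusted p = 0.0313). Ordered by level, SJSA-1 ran from 800 nM through 200 nM to DMSO and 50 nM, of which the last pair was not called apart, while U2-OS ran from DMSO through 50 and 200 nM to 800 nM, with a called step between 50 and 200 nM alone.

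CCNH and MNAT1, the partners of CDK7, were not called lower in SJSA-1 at any dose relative to the other probe sets, unlike CDK7 at 200 and 800 nM. The poly-A shift changed calls of both partners. CCNH read 9.23, 9.32 and 9.31 in DMSO, 9.51, 9.54 and 9.64 at 50 nM, 9.67, 9.39 and 9.36 at 200 nM and 9.40, 9.44 and 9.54 at 800 nM in SJSA-1, and the change was 0.28 at 50 nM (adjusted p = 0.014), 0.19 at 200 nM and 0.17 at 800 nM, of which the last 2 were not called (95% intervals 0.01 to 0.36 and 0.00016 to 0.35). MNAT1 read 8.03, 8.01 and 8.03 in DMSO, 8.10, 8.22 and 8.09 at 50 nM, 7.91, 7.85 and 7.91 at 200 nM and 7.85, 8.0 and 7.97 at 800 nM, and none of its SJSA-1 changes, 0.12, -0.13 and -0.08, was called (intervals -0.01 to 0.25, -0.26 to -0.0023 and -0.21 to 0.05). With that shift the SJSA-1 changes at 50, 200 and 800 nM were -0.38, -0.59 and -0.62 for MNAT1, all called lower (adjusted p = 0.0326, 0.00155 and 0.000853). For CCNH they were -0.22, -0.27 and -0.36, of which the last was called lower (adjusted p = 0.0446). On the scale without the shift, every treated SJSA-1 array of CCNH lay above the DMSO arrays, and for MNAT1 the 50 nM arrays lay above and the 200 and 800 nM arrays below them. In U2-OS both were called higher at 200 and 800 nM, CCNH going from 8.53 ± 0.057 (SD, n = 3) in DMSO to 8.94 ± 0.045 at 800 nM and MNAT1 from 7.58 ± 0.047 to 7.89 ± 0.021, with changes of 0.41 and 0.31 (adjusted p = 0.000143 and 0.00084) that became -0.50 and -0.61 after the poly-A shift. At 200 nM in U2-OS the changes were 0.23 and 0.25 (after the poly-A shift -0.31 and -0.28). The CCNH call at 200 nM was lost without U2-OS DMSO replicate 1 or 3 or 200 nM replicate 1 or 3 (0.19 to 0.22, adjusted p up to 0.0817), and its SJSA-1 call at 50 nM without SJSA-1 DMSO replicate 1 or 50 nM replicate 3 (0.24 to 0.25, up to 0.0606). Without SJSA-1 200 nM replicate 3 the 200 nM change of CCNH was 0.24 and called (adjusted p = 0.0371), and without 200 nM replicate 1 its 800 nM change of 0.17 was called (adjusted p = 0.0349). No step between neighbouring levels of CCNH was called in either line, and for MNAT1 only that between 50 and 200 nM in U2-OS was.

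CDK9, the kinase of P-TEFb, fell in SJSA-1 at every dose and was not called in U2-OS by its leading probe set, except after the poly-A shift. In SJSA-1 that probe set read 7.14, 7.14 and 7.17 in DMSO, 6.54, 6.51 and 6.58 at 50 nM, 6.26, 6.46 and 6.45 at 200 nM and 6.35, 6.39 and 6.17 at 800 nM. In U2-OS it read 7.26, 7.33 and 7.44 in DMSO, 7.44, 7.45 and 7.34 at 50 nM, 7.44, 7.29 and 7.49 at 200 nM and 7.16, 7.08 and 7.21 at 800 nM. Every treated SJSA-1 array lay below the SJSA-1 DMSO arrays, and no step from one treated dose to the next was called. The SJSA-1 changes were -0.61 ± 0.071, -0.76 ± 0.071 and -0.85 ± 0.071 (SE; adjusted p = 8.91e-06, 8.63e-07 and 2.99e-07), against 0.07, 0.06 and -0.19 in U2-OS. The U2-OS value at 800 nM had an adjusted p of 0.0505 and was called without U2-OS DMSO replicate 1 (down to -0.23) or 200 nM replicate 2 or 3, and the poly-A shift moved the U2-OS values at 200 and 800 nM to -0.47 and -1.10, both then called lower (adjusted p = 0.0138 and 3.22e-09). A second probe set, 11720659_at, also fell in SJSA-1, with changes of -0.80, -1.38 and -1.13, and changed by -0.23 at 800 nM in U2-OS (adjusted p = 0.00573). The third, 11720661_at, went the other way in SJSA-1, with 0.19, 0.35 and 0.37, values that became -0.31, -0.11 and -0.17 after the poly-A shift. It was not active in SJSA-1, where it read 4.82, 4.96 and 4.90 in DMSO and 5.15, 5.31 and 5.32 at 800 nM, and its 50 nM call was lost without any one of 5 arrays (SJSA-1 DMSO replicates 1 and 3 and the 3 arrays at 50 nM; 0.16 to 0.20). The within-array difference between the leading probe set and 11720661_at changed by -0.80, -1.12 and -1.21 in SJSA-1 (adjusted p = 2.44e-05, 1.64e-06 and 9.68e-07 over 59355 pairs of probe sets of 1 gene, with no activity filter, described here after seeing the data).

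CCNT1 and CCNT2, the cyclins of P-TEFb, rose at 50 nM in SJSA-1 and stood lower again at higher doses. In U2-OS both had their highest level at 800 nM. The poly-A shift turned that U2-OS change for CCNT1. For the leading probe set of CCNT2 the sign stayed, but the change was then not called. CCNT1 in SJSA-1 read 6.58, 6.45 and 6.61 in DMSO, 7.39, 7.29 and 7.23 at 50 nM, 6.26, 6.47 and 6.29 at 200 nM and 5.92, 5.95 and 5.85 at 800 nM. In U2-OS it read 6.52, 6.63 and 6.85 in DMSO, 6.62, 6.71 and 6.59 at 50 nM, 6.86, 6.89 and 6.92 at 200 nM and 7.16, 7.40 and 7.30 at 800 nM. The 50 nM arrays were the highest of SJSA-1 and the 800 nM arrays the highest of U2-OS, with no overlap with DMSO in either case. The SJSA-1 changes of CCNT1 were 0.76 ± 0.073, -0.21 ± 0.073 and -0.64 ± 0.073 (SE; adjusted p = 1.42e-06, 0.029 and 7.27e-06). The step from 50 to 200 nM was -0.96 (adjusted p = 3.03e-07) and that from 200 to 800 nM -0.43 (adjusted p = 0.00167), so each neighbour in the order 800 nM, 200 nM, DMSO, 50 nM differed. In U2-OS the changes were -0.03, 0.22 and 0.62, of which the last was called (adjusted p = 5.23e-05), and the last 2 became -0.31 and -0.29 with the poly-A shift. That shift left the SJSA-1 change at 50 nM at 0.26, which was not called (adjusted p = 0.139). The SJSA-1 call at 200 nM was lost without DMSO replicate 1 or 3 or 200 nM replicate 1 or 3 (-0.19 to -0.17, adjusted p up to 0.105), and the U2-OS value at 200 nM was called without DMSO replicate 3 (0.32, adjusted p = 0.0146).

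CCNT2 is described first by its leading probe set, which was dim in both lines. In SJSA-1 it read 5.86, 5.90 and 5.96 in DMSO, 7.28, 7.10 and 7.09 at 50 nM, 6.15, 6.10 and 6.00 at 200 nM and 5.81, 5.84 and 5.60 at 800 nM. In U2-OS it read 6.01, 6.06 and 6.06 in DMSO, 5.98, 6.14 and 6.19 at 50 nM, 6.41, 6.25 and 6.42 at 200 nM and 7.31, 7.19 and 7.20 at 800 nM. The change at 50 nM in SJSA-1 was 1.25 ± 0.077 (SE; 2.38-fold; adjusted p = 1.98e-08), and at 200 and 800 nM it was 0.18 and -0.16, which were not called (95% intervals 0.01 to 0.34 and -0.33 to 0.01), and the poly-A shift gave 0.75, -0.28 and -0.69, with the first called higher and the last called lower. The 800 nM change in U2-OS was 1.19 ± 0.07 (2.28-fold, adjusted p = 2.23e-08), after 0.31 at 200 nM (adjusted p = 0.00583). The poly-A shift turned the latter to -0.22 and left the former at 0.28, which was then not called. In SJSA-1 no step between the levels at 800 nM, DMSO and 200 nM was called and 50 nM lay above them, while in U2-OS the steps from 50 to 200 nM and from 200 to 800 nM were called. The other 2 probe sets also rose at 50 nM in SJSA-1, 11737161_a_at by 1.45 and 11726081_a_at by 0.61, and at 800 nM in U2-OS by 1.66 and 0.72 (0.75 and -0.20 after the poly-A shift). At 800 nM in SJSA-1 they stood at -0.29 and -0.53 from DMSO, both called lower. Both were active in neither line, and group means of 11726081_a_at ran only from 6.01 to 14.7 in intensity. For 11737161_a_at the U2-OS call at 200 nM (0.51; -0.02 after the poly-A shift) was lost without U2-OS DMSO replicate 3 or 200 nM replicate 1 or 3 (0.39 to 0.47, adjusted p up to 0.0861), and for 11726081_a_at the SJSA-1 call at 200 nM (-0.34) was lost without 200 nM replicate 2 (-0.25, adjusted p = 0.0718). The leading probe set was called at 200 nM in SJSA-1 without 800 nM replicate 3 (0.18, adjusted p = 0.049).

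**Figure D2:**
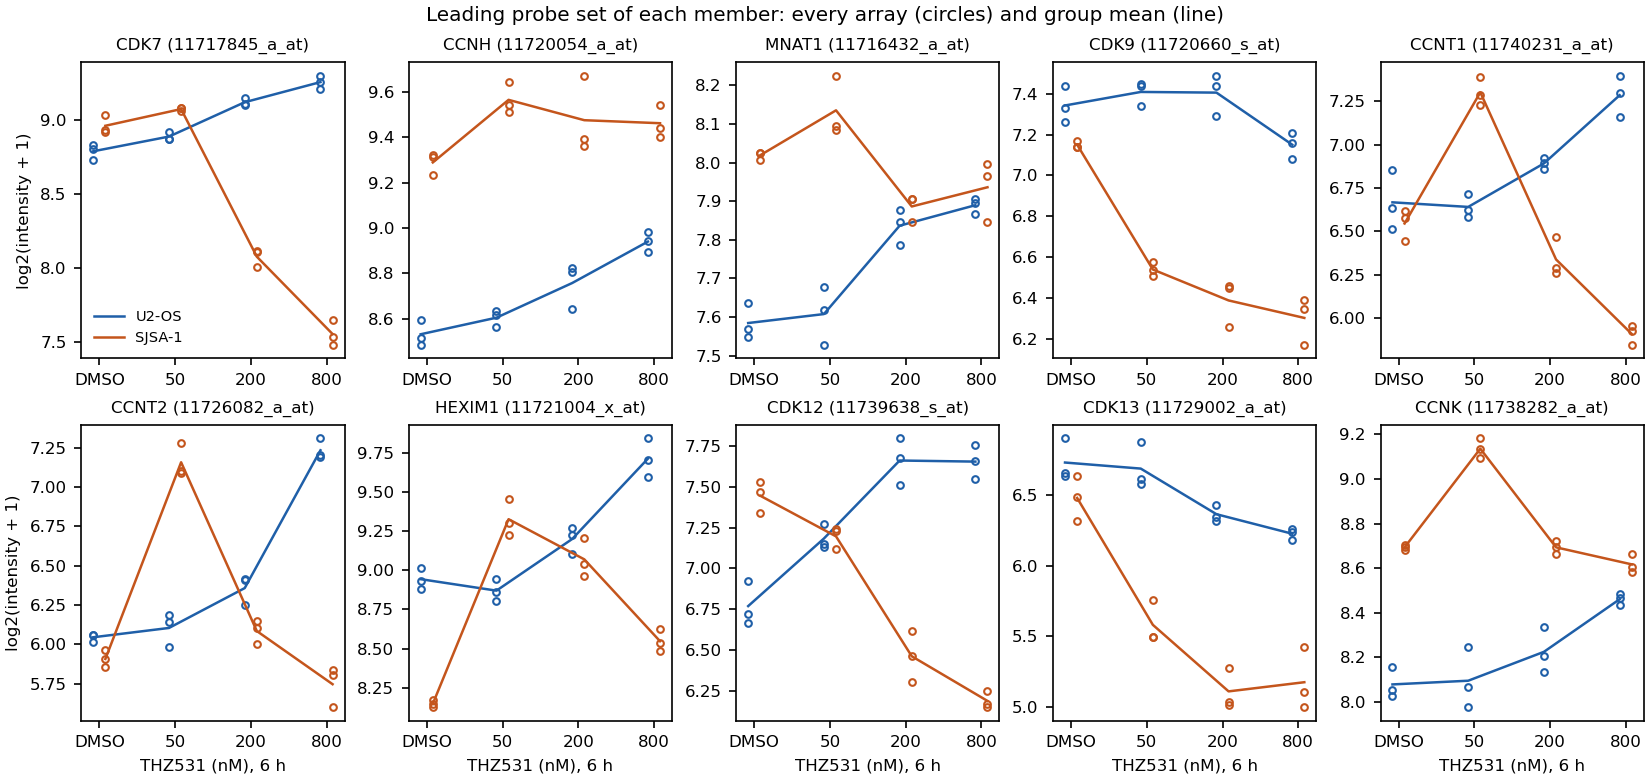
Log2 intensity of the leading probe set of each of the 10 genes against THZ531 dose (DMSO, 50, 200 and 800 nM), with 1 point for each of 3 arrays a group, the mean joined by a line and both cell lines in each panel. CDK12 and CDK7 rise in U2-OS while they fall in SJSA-1 at 200 and 800 nM. CCNT1, CCNT2 and CCNK have their highest SJSA-1 level at 50 nM, as do HEXIM1, CCNH, MNAT1 and CDK7. After the poly-A shift the U2-OS changes at 800 nM became -0.03 for CDK12 and -0.44 for CDK7. The SJSA-1 changes at 50 nM became -0.06 for CCNK, -0.22 for CCNH, -0.38 for MNAT1 and -0.38 for CDK7.

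HEXIM1, the inhibitor of P-TEFb, rose in both lines relative to the other probe sets. Its 5 probe sets were called higher in SJSA-1 at each dose and in U2-OS at 200 and 800 nM. The poly-A shift, however, turned 2 of them in U2-OS at both doses and in SJSA-1 at 800 nM. With that shift none of the 5 was called higher in U2-OS at 200 nM. The leading probe set 11721004_x_at read 8.88, 8.93 and 9.01 in DMSO, 8.86, 8.94 and 8.80 at 50 nM, 9.27, 9.10 and 9.22 at 200 nM and 9.59, 9.84 and 9.70 at 800 nM in U2-OS. In SJSA-1 it read 8.15, 8.13 and 8.18 in DMSO, 9.45, 9.22 and 9.30 at 50 nM, 9.20, 9.04 and 8.96 at 200 nM and 8.48, 8.53 and 8.62 at 800 nM. No treated SJSA-1 array reached down to the DMSO arrays, and the level fell again from 50 to 800 nM, each neighbouring step being called, while U2-OS rose from 50 to 200 and to 800 nM. The changes were 1.18 ± 0.076, 0.92 ± 0.076 and 0.40 ± 0.076 in SJSA-1 (SE; adjusted p = 2.84e-08, 2.36e-07 and 0.000678), where the last became -0.13 after the poly-A shift. In U2-OS they were -0.07, 0.26 and 0.77 (adjusted p = 0.795, 0.0264 and 2.11e-06), where the last 2 became -0.28 and -0.14. The U2-OS call at 200 nM was lost without DMSO replicate 1 or 2 or 200 nM replicate 1 or 3 (0.22 to 0.25, adjusted p up to 0.107).

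The size of the HEXIM1 rise depended on the probe set. Probe set 11721002_s_at read 7.0, 7.20 and 7.33 in DMSO, 9.78, 9.64 and 9.69 at 50 nM, 9.83, 9.79 and 9.85 at 200 nM and 9.37, 9.33 and 9.40 at 800 nM in SJSA-1. In U2-OS it read 8.31, 8.35 and 8.34 in DMSO, 8.36, 8.33 and 8.28 at 50 nM, 8.99, 8.84 and 8.85 at 200 nM and 9.61, 9.62 and 9.64 at 800 nM. Its SJSA-1 changes were 2.53 ± 0.076, 2.65 ± 0.076 and 2.19 ± 0.076 (adjusted p = 4.6e-11, 1.48e-11 and 4.28e-11), or 5.77-fold, 6.27-fold and 4.57-fold, and the step from 50 to 200 nM was not called. In SJSA-1 11721001_at changed by 2.53, 2.82 and 2.23 and 11721000_at by 2.11, 1.81 and 1.10, neither of them active there, and 11721003_at by 1.01, 0.78 and 0.37. All of these were called higher, and after the poly-A shift the 800 nM value of 11721003_at became -0.16, with those of the other 3 at 1.66, 1.70 and 0.56. In U2-OS the 4 probe sets beside the leading one changed by 0.36 to 0.69 at 200 nM and by 0.83 to 1.5 at 800 nM, and after the poly-A shift 11721003_at stood at -0.17 and -0.08. The within-array difference of 11721004_x_at and 11721002_s_at changed by -1.35, -1.73 and -1.79 in SJSA-1 (adjusted p = 1.28e-07, 2.9e-08 and 1.88e-08) and by -0.52 at 800 nM in U2-OS (adjusted p = 0.000241). That of 11721002_s_at and 11721003_at changed by 1.52, 1.87 and 1.82 in SJSA-1, so 11721003_at and the leading probe set formed a group with smaller changes, and their own difference changed by 0.17, 0.14 and 0.03 with only the first called (adjusted p = 0.0463). Such within-array differences do not move with a shift of the whole array. Over pairs of active probe sets of 1 gene, 0, 4 and 7 of 11 member pairs moved apart in U2-OS at 50, 200 and 800 nM, beside 0%, 3.81% and 11% of all 12770 pairs, and 3, 2 and 2 of 4 in SJSA-1, beside 24.8%, 34% and 40.6% of 13652. All the member pairs called were pairs of HEXIM1, but only HEXIM1 and CCNK had pairs of active probe sets, so other genes could not be called. With no activity filter, pairs of CDK9 (-1.74), CDK13 (-1.62), CDK12 (-1.14) and CCNT2 (0.51) also moved apart at 200 nM in SJSA-1. Further pairs moved apart there too, among them pairs of CDK13 (-1.15), CDK9 (-1.12), CDK12 (-0.82) and CCNT2 (0.35). Some pairs of CDK12, CDK13 and CCNT2 did not. With the filter, at 200 nM in U2-OS 9.09% were called without DMSO replicate 1 or 200 nM replicate 2. Without DMSO replicate 2 or 3 it was 18.2%, in place of 36.4%. With no activity filter, the difference of the leading HEXIM1 probe set and 11721000_at changed by -0.89 at 200 nM in SJSA-1. That of 11721002_s_at and 11721000_at changed by 0.83, so 11721000_at lay between them. The plot of the HEXIM1 and CDK12 probe sets shows each probe set of HEXIM1.

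**Figure D3:**
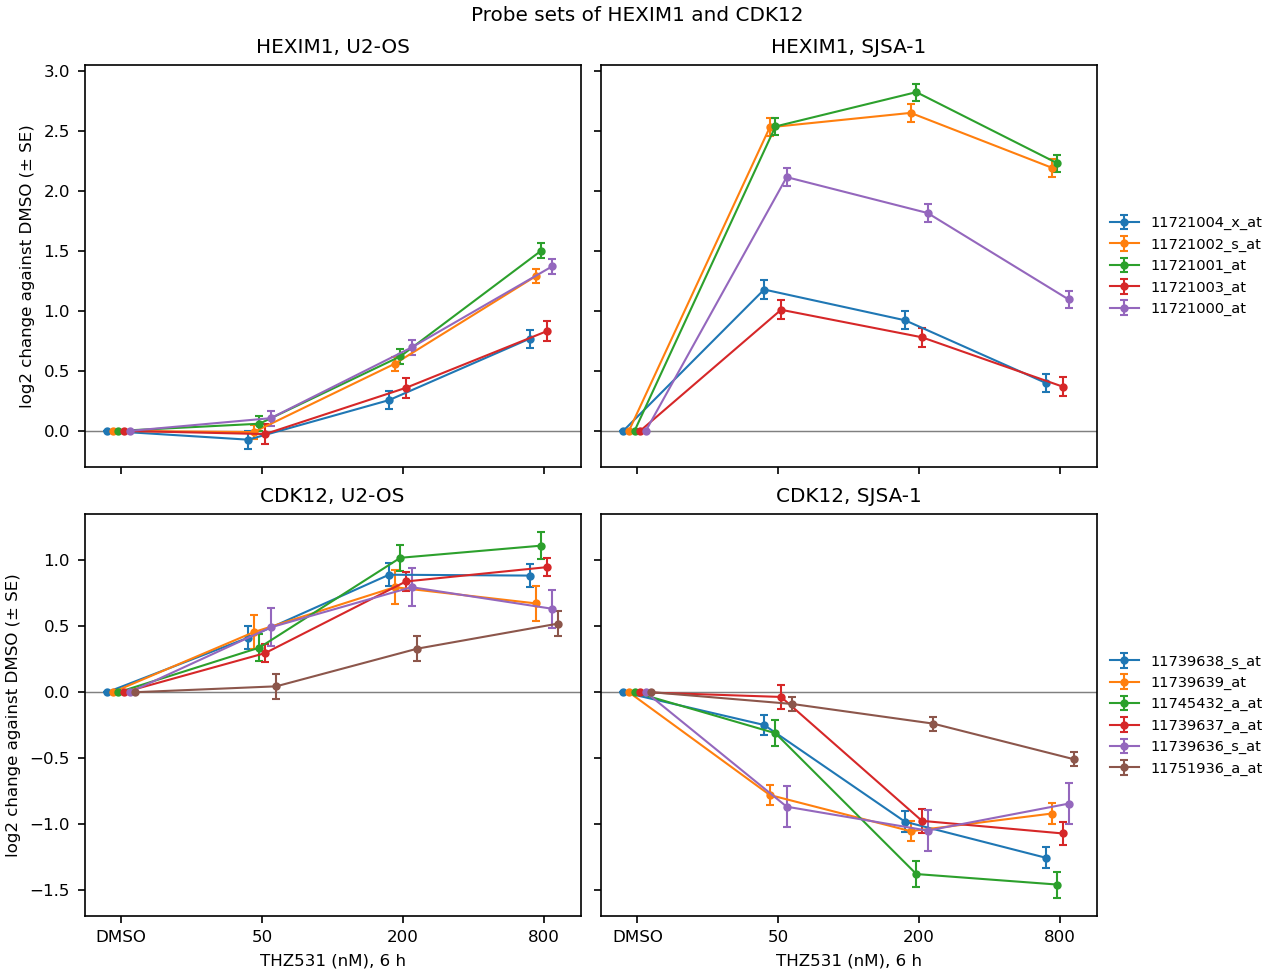
Log2 change against DMSO (with standard error) of each of the 5 HEXIM1 and 6 CDK12 probe sets at 50, 200 and 800 nM THZ531 in U2-OS and SJSA-1. In SJSA-1 the HEXIM1 probe sets 11721002_s_at and 11721001_at stay above 2 at each dose, while 11721004_x_at and 11721003_at end at 0.40 and 0.37 at 800 nM, values that turn to -0.13 and -0.16 after the poly-A shift.

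CDK12, a target of the inhibitor, rose in U2-OS and fell in SJSA-1. With the poly-A shift the U2-OS change of its leading probe set was called at no dose. At 800 nM it was then near 0 and had the other sign. Its leading probe set 11739638_s_at read 6.66, 6.72 and 6.92 in DMSO, 7.27, 7.15 and 7.13 at 50 nM, 7.51, 7.68 and 7.80 at 200 nM and 7.76, 7.55 and 7.66 at 800 nM in U2-OS. In SJSA-1 it read 7.47, 7.34 and 7.53 in DMSO, 7.23, 7.24 and 7.12 at 50 nM, 6.47, 6.61 and 6.31 at 200 nM and 6.17, 6.25 and 6.15 at 800 nM. The treated U2-OS arrays at 200 and 800 nM lay above all U2-OS DMSO arrays, and the SJSA-1 arrays at those doses lay below all SJSA-1 DMSO arrays. In U2-OS the changes were 0.41 ± 0.089, 0.89 ± 0.089 and 0.88 ± 0.089 (SE, adjusted p = 0.0432, 1.52e-05 and 2.93e-06). After the poly-A shift these changes were 0.32, 0.36 and -0.03, none of them called. The U2-OS levels at 200 and 800 nM were not called apart. In SJSA-1 they were -0.25 ± 0.079, -0.98 ± 0.079 and -1.26 ± 0.079 (adjusted p = 0.0234, 2.01e-07 and 1.54e-08), each dose differing from the next. The U2-OS call at 50 nM was the single one among the 26, and it was lost without any one of 8 arrays (DMSO replicate 1 or 2, any 50 nM or any 800 nM array), with changes of 0.36 to 0.44 and an adjusted p up to 0.141. The SJSA-1 call at 50 nM was lost without DMSO replicate 1 or 3 or 50 nM replicate 3 (-0.24 to -0.21, up to 0.0955).

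The other 5 CDK12 probe sets, none of them active in either line, had the same signs at 200 and 800 nM. In U2-OS they changed by 0.33 to 1.02 at 200 nM and by 0.52 to 1.11 at 800 nM, all called higher, and after the poly-A shift the 800 nM values ran from -0.39 to 0.20 with 3 of the 5 below 0. In SJSA-1 they changed by -1.38 to -0.24 and by -1.46 to -0.51, all called lower. At 50 nM in SJSA-1 they differed among themselves, 11739639_at and 11739636_s_at falling by 0.78 and 0.87 while 11739637_a_at and 11751936_a_at, at -0.04 and -0.09, were not called. The within-array difference of 11739639_at and 11739637_a_at changed by -0.74 at that dose (adjusted p = 3.36e-05, with no activity filter). The SJSA-1 call of 11745432_a_at at 50 nM (-0.31) was lost without DMSO replicate 3 or 50 nM replicate 3 (-0.23 to -0.21, adjusted p up to 0.115), and the U2-OS call of 11751936_a_at at 200 nM, which became -0.20 after the poly-A shift, without DMSO replicate 1 or 3 or 200 nM replicate 1 or 2 (0.25 to 0.33, up to 0.111). At 50 nM in U2-OS their changes ran from 0.04 to 0.49 with none called, although 11739637_a_at was called without 50 nM replicate 3 or 200 nM replicate 2 (0.30 to 0.37) and 11739639_at without 200 nM replicate 2 (0.46, adjusted p = 0.0409).

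CDK13, the paralogue of CDK12, was lower with THZ531 in both lines by its leading probe set, in U2-OS at 200 and 800 nM only. Its leading probe set read 6.49, 6.32 and 6.63 in DMSO, 5.49, 5.76 and 5.49 at 50 nM, 5.03, 5.02 and 5.28 at 200 nM and 5.42, 5.00 and 5.10 at 800 nM in SJSA-1. In U2-OS it read 6.65, 6.63 and 6.90 in DMSO, 6.87, 6.61 and 6.58 at 50 nM, 6.32, 6.43 and 6.35 at 200 nM and 6.18, 6.26 and 6.24 at 800 nM. All treated SJSA-1 arrays lay below the DMSO arrays of that line. The changes were -0.90 ± 0.12, -1.37 ± 0.12 and -1.31 ± 0.12 in SJSA-1 (SE; adjusted p = 3.13e-05, 4.36e-07 and 7.55e-07), with 200 and 800 nM not called apart. In U2-OS they were -0.04, -0.37 and -0.50 (adjusted p = 0.916, 0.00866 and 0.000393), with a called step between 50 and 200 nM. Probe set 11755318_s_at also fell in SJSA-1, with changes of -1.2, -1.84 and -1.98, and its U2-OS value of -0.38 at 800 nM (adjusted p = 0.0539) was called without any one of 5 arrays (DMSO replicate 3, 50 nM replicate 1 or 3, 200 nM replicate 2 or 3; -0.48 to -0.38). Probe set 11761825_x_at was very dim, with group means of 5.63 to 7.07 in intensity beside array medians of at least 30.1. It was at -0.18, -0.22 and -0.28 in SJSA-1 and within 0.07 of DMSO in U2-OS. Its SJSA-1 call at 200 nM was lost without DMSO replicate 3 or 200 nM replicate 1 or 2 (-0.21 to -0.14, adjusted p up to 0.174). That at 800 nM was lost without DMSO replicate 3 or 800 nM replicate 3 (-0.24 to -0.20, up to 0.0682).

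CCNK, the cyclin shared by CDK12 and CDK13, had its highest SJSA-1 level at 50 nM. So had CCNT1, CCNT2, HEXIM1, CCNH, MNAT1 and CDK7 by their leading probe sets. For CCNH, MNAT1 and CDK7 the step to that level from the next highest was not called. After the poly-A shift the 50 nM level of CCNK lay just under DMSO, and those of CCNH, MNAT1 and CDK7 lay under it too. In SJSA-1 it read 8.68, 8.70 and 8.69 in DMSO, 9.13, 9.18 and 9.09 at 50 nM, 8.72, 8.66 and 8.69 at 200 nM and 8.58, 8.60 and 8.66 at 800 nM. In U2-OS it read 8.06, 8.03 and 8.16 in DMSO, 8.24, 8.07 and 7.98 at 50 nM, 8.20, 8.14 and 8.33 at 200 nM and 8.48, 8.46 and 8.43 at 800 nM. The 50 nM arrays stood above all others in SJSA-1, and no step between the other 3 groups of that line was called. The SJSA-1 changes were 0.44 ± 0.053 (SE; adjusted p = 1.15e-05), 0.00 and -0.08, the last 2 not called (95% intervals -0.11 to 0.11 and -0.19 to 0.04), and after the poly-A shift they were -0.06, -0.46 and -0.61. In U2-OS they were 0.02, 0.15 and 0.38, of which the last was called (adjusted p = 0.00117), and the last 2 became -0.39 and -0.53 with the poly-A shift. The second probe set, 11743735_a_at, gave 0.45, 0.01 and -0.05 in SJSA-1 and 0.36 at 800 nM in U2-OS, and the difference of the pair changed by 0.04 or less at each dose with no call.

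Whether the lines differed was tested over all 24 arrays as the change in SJSA-1 less that in U2-OS. At 50, 200 and 800 nM 20, 21 and 25 of the 26 probe sets were called, beside 27.3%, 35.2% and 36.4% of all probe sets, with 11, 6 and 3 of them higher in SJSA-1, against 12%, 18.2% and 19.8% of all probe sets higher and 15.3%, 17% and 16.6% lower. After the poly-A shift the calls were 16, 14 and 15, of which 7, 4 and 3 were higher. CDK12 differed by -0.66, -1.87 and -2.14 (adjusted p = 0.0002, 4.83e-11 and 2.62e-12). CDK7 differed by -1.22 at 200 nM and -1.88 at 800 nM (adjusted p = 2.28e-11 and 1.02e-14) and by 0.01 at 50 nM, which was not called (95% interval -0.14 to 0.17; -0.39 after the poly-A shift). The cyclins changed sign with dose, since CCNT1 differed by 0.78 at 50 nM and -1.26 at 800 nM, CCNT2 by 1.19 and -1.35, and CCNK by 0.43 and -0.46, all called. With the poly-A shift the CCNK differences were 0.03 and -0.08 and that of CCNT1 at 50 nM was 0.38, none of them called, while CCNT2 stood at 0.79 and -0.97, both called. HEXIM1 did so too by its leading probe set (1.25 and -0.37; 0.01 at 800 nM after the poly-A shift), while 11721002_s_at and 11721001_at stayed higher in SJSA-1 at 800 nM (0.90 and 0.73; adjusted p = 4.2e-08 and 1.29e-06). The 11721000_at difference at 800 nM (-0.28; 0.10 after the poly-A shift) lost its call without any one of 5 arrays (U2-OS DMSO replicate 1 or 2, SJSA-1 DMSO replicate 3, SJSA-1 800 nM replicate 1 or 2; -0.26 to -0.21). CCNH was not called at any dose (0.20, -0.04 and -0.24; intervals -0.01 to 0.41, -0.25 to 0.17 and -0.45 to -0.03), except at 800 nM without SJSA-1 200 nM replicate 1 (-0.24, adjusted p = 0.0299). MNAT1 differed by -0.38 and -0.39 at 200 and 800 nM, CDK9 by -0.68, -0.83 and -0.66, and CDK13 by -0.86, -1.0 and -0.80 at the 3 doses. The poly-A shift left MNAT1 at -0.31 and -0.01, and at 800 nM CDK9 at -0.28 and CDK13 at -0.42, none of them called.

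**Figure D4:**
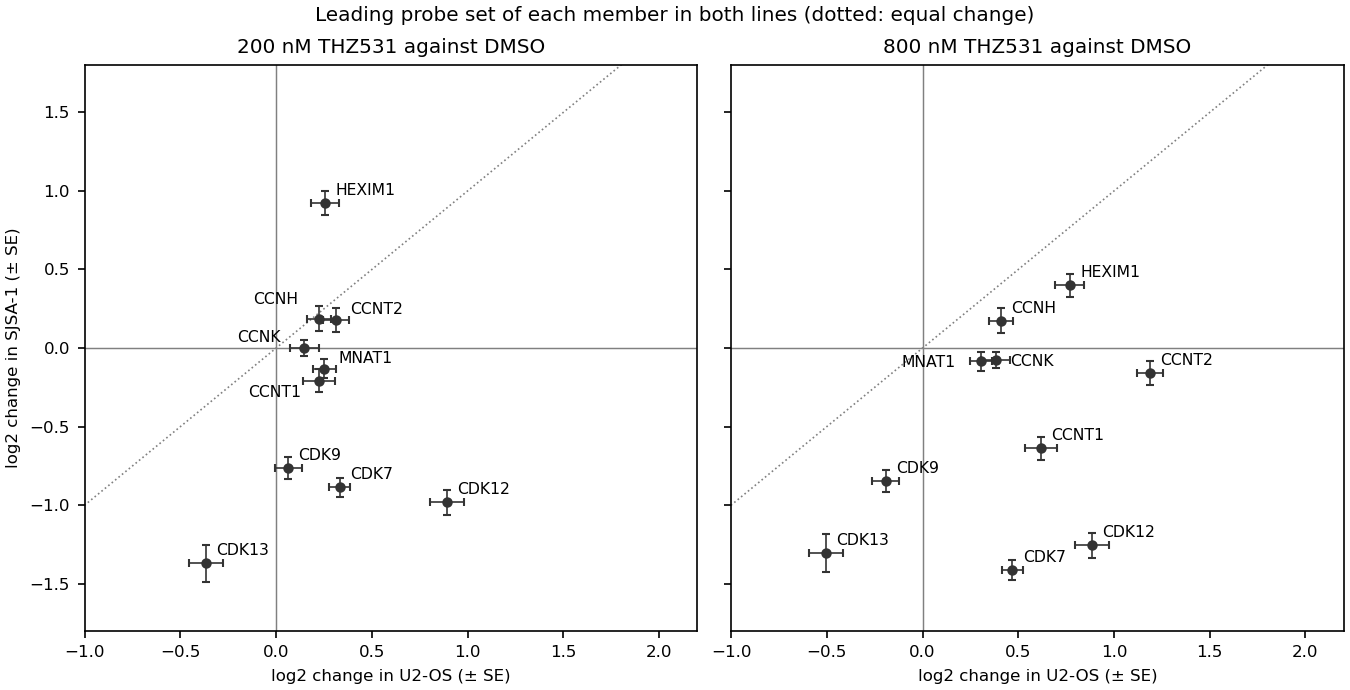
Log2 change against DMSO of the leading probe set of each gene in U2-OS (horizontal axis) and SJSA-1 (vertical axis) at 200 nM and 800 nM THZ531, with bars for the standard error and a dotted line where both changes are equal. At 800 nM CDK12 lies at 0.88 and -1.26 and CDK7 at 0.47 and -1.41, and all 10 genes lie below the dotted line, with the CCNH difference not called; after the poly-A shift the U2-OS values of CDK12 and CDK7 became -0.03 and -0.44, HEXIM1 and CCNH lay above the line by 0.01 and 0.14 and MNAT1 lay -0.01 from it.

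From one dose to the next, the U2-OS probe sets mostly stepped up and the SJSA-1 ones down, of which the poly-A shift turned the U2-OS steps. In U2-OS 12 of 26 were called from 50 to 200 nM (11 higher, 1 lower) and 12 from 200 to 800 nM (10 and 2), beside 8.71% (3.3% higher, 5.41% lower) and 14.7% (7.15% and 7.6%) of all probe sets. In SJSA-1 20 were called from 50 to 200 nM (1 higher, 19 lower) and 11 from 200 to 800 nM (0 and 11), beside 31.5% (16.4% higher, 15.1% lower) and 12.1% (6.91% and 5.15%). Set directly against each other, 800 and 50 nM gave 22 calls in U2-OS (18 higher, 4 lower) and 22 in SJSA-1 (1 and 21), beside 29.1% (13.6% higher, 15.6% lower) and 36.7% (20.7% and 16%), a comparison added after seeing the data and not run with the shift. After the poly-A shift the U2-OS step from 50 to 200 nM gave 0 higher and 5 lower calls and that from 200 to 800 nM 3 higher and 7 lower, and the SJSA-1 steps gave 10 and 4 calls, all lower.

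Genes that work beside these kinases are given as lists, by the leading probe set of each gene. The 3 other proteins of the 7SK particle, which holds P-TEFb inactive with HEXIM1, were mostly called lower, with 0 higher and 3 lower at 200 nM in SJSA-1 and 1 and 2 in U2-OS, beside 55.1% (32.4% higher, 22.7% lower) and 21.5% (8.64% and 12.9%) of 18132 genes called. MEPCE, which caps 7SK RNA, changed by -1.62 in SJSA-1 and 0.18 in U2-OS, HEXIM2, the paralogue of HEXIM1, by -0.91 and -0.72, and LARP7, which binds the end of 7SK, by -0.22 and -0.54, all called. Of 8 CTD phosphatase genes and partners, 6 were lower and 1 higher in SJSA-1 at 200 nM, and 6 lower and 0 higher in U2-OS. RPAP2, a phosphatase of the tail, changed by -2.38 in SJSA-1 and -0.27 in U2-OS, and CTDSP2, a small CTD phosphatase, by -0.91 and -0.27, all called, while CTDP1, which recycles the polymerase, was at -1.01 and, not called, at 0.25. Of 6 core TFIIH genes, 3 were higher and 2 lower in SJSA-1 and 0 and 2 in U2-OS, with GTF2H1 lower in both at -1.08 and -0.75. Of 9 other CTD kinases and cyclins, 1 was higher and 2 lower in SJSA-1 and 1 and 1 in U2-OS, and CDK8, the kinase of the Mediator complex, changed by -1.10 and 0.26, both called. Of 12 cell cycle CDKs and cyclins, 1 was higher and 7 lower in SJSA-1 and 1 and 2 in U2-OS, with CCNE1 (cyclin E1) at -0.87 in SJSA-1 and at 0.13, not called, in U2-OS. Of the list genes called higher at 200 nM, all 3 in U2-OS changed by less than the 0.53 by which the poly-A controls rose there, and 5 of the 6 in SJSA-1 by less than the 0.46 there, the exception being GTF2H5 of TFIIH at 0.47.

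The genes whose pattern was most like that of HEXIM1 over the 24 arrays, each array taken from the DMSO mean of its line, were PDS5A (Pearson r = 0.98), RSRP1 (0.97), ZFP36L2 (0.96), FANCI (0.96) and ASXL1 (0.96), out of 11535 probe sets active in both lines. PDS5A changed by 1.37 at 800 nM in U2-OS and by 1.42 at 200 nM in SJSA-1. For CDK12 they were UTP25 (0.99), TIAM1 (0.99), NEDD4L (0.98), DHX33 (0.98) and PLIN2 (0.98). UTP25 changed by 0.87 at 800 nM in U2-OS, less than the 0.91 by which the poly-A controls rose there, and by -1.03 at 200 nM in SJSA-1. These r values describe 8 groups of 3 arrays that share their normalization, so they rest mainly on the group means and carry no test.

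The genes also differ in the length of their loci on GRCh38.p14. HEXIM1 spans 3.625 kb on chromosome 17 and CDK9 4.759 kb on chromosome 9, and at 200 nM in SJSA-1 their leading probe sets changed by 0.92 and -0.76. CCNT1 (28.25 kb, chromosome 12), CCNK (31.032 kb, chromosome 14) and CCNT2 (40.521 kb, chromosome 2) changed by -0.21, 0.00 and 0.18 at that dose, and CDK7 (42.636 kb, chromosome 5) by -0.89. CCNH (101.46 kb, chromosome 5) changed by 0.19, CDK12 (106.074 kb, chromosome 17) by -0.98, CDK13 (149.325 kb, chromosome 7) by -1.37 and MNAT1 (235.205 kb, chromosome 14) by -0.13. Whether the changes go with the spans was not tested.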

How the data were processed

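RNA from U2-OS and SJSA-1 cells was read on 24 PrimeView arrays, whose group, dose and replicate number come from the labels. The files hold deposited intensities on the linear scale, made by the authors with RMA and quantile normalization per the methods, while the processing notes of the submitters name both MAS5 and RMA. Their versions are not given in the sources used here. The values behave as antilogs of log2 values kept to hundredths. How precise a value is depends on the number of arrays and on the signal over background.

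Of 49372 probe sets, 79 control probe sets were left out of the tests. A single gene symbol was held by 44994 probe sets, several by 1832 and none by 2546, by GEO's platform annotation, whose older symbols were updated by Entrez ID to those of RefSeq on GRCh38.p14. Values were tested as log2(value + 1) in R 4.3.3, by the lmFit and eBayes functions of limma 3.58.1. Doses were compared in a fit of the 12 arrays of a line and the lines in a fit of all 24, with Benjamini-Hochberg adjustment over 49293 probe sets and a threshold of 0.05. Intervals are limma's 95% intervals. Pairs of probe sets of 1 gene were tested on their within-array difference, adjusted over all such pairs. The fits were tested on simulated data.

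The members and lists were chosen with earlier results of these data known. Every probe set of a member is reported, and its gene is led by the brightest one on average. Up to 3 genes a context list are named, by the size of their change at 200 nM, and the 5 genes with the highest Pearson r to HEXIM1 and to CDK12. Marker lists for osteoblasts, for neurons and glia, and for leukocytes and endothelium were checked against the activity criterion.

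The alternatives were 2 activity filters, log2(value) with no pseudocount or with 16 added, median centring, repeated quantile normalization, shifts by either kind of control, 1 probe set a gene, a trended and robust eBayes, weights for arrays, fits with only the groups compared or with all arrays, the replicate block, a 2-fold requirement, the test of the methods, and leaving out each array. The comparison of 800 with 50 nM and the description of pairs that hold an inactive probe set were added after seeing the data. Protein and probe sequences were not used here. Figures were drawn with matplotlib 3.10.9.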

Additional observations from a re-analysis of the deposited data

Results flagged for a closer look

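Each result below is a change that differed between the lines by the test of the difference itself (SJSA-1 change minus U2-OS change on the log2 scale, limma over 24 arrays, adjusted over all probe sets), for the leading probe set of the gene. At 50 nM the SJSA-1 change lay above that of U2-OS for CCNT1 (0.78, adjusted p = 1.04e-05), CCNT2 (1.19, adjusted p = 8.71e-09), HEXIM1 (1.25, adjusted p = 6.05e-09) and CCNK (0.43, adjusted p = 0.000747). At 50 nM it lay below for CDK9 (-0.68, adjusted p = 1.19e-05), CDK12 (-0.66, adjusted p = 0.0002) and CDK13 (-0.86, adjusted p = 0.000175). At 200 nM the SJSA-1 change lay above that of U2-OS for HEXIM1 (0.66, adjusted p = 3.06e-05). At 200 nM it lay below for CDK7 (-1.22, adjusted p = 2.28e-11), MNAT1 (-0.38, adjusted p = 0.000441), CDK9 (-0.83, adjusted p = 6.08e-07), CCNT1 (-0.43, adjusted p = 0.00442), CDK12 (-1.87, adjusted p = 4.83e-11) and CDK13 (-1.0, adjusted p = 2.1e-05). At 800 nM it lay below for CDK7 (-1.88, adjusted p = 1.02e-14), MNAT1 (-0.39, adjusted p = 0.00035), CDK9 (-0.66, adjusted p = 1.18e-05), CCNT1 (-1.26, adjusted p = 5.78e-09), CCNT2 (-1.35, adjusted p = 4.05e-10), HEXIM1 (-0.37, adjusted p = 0.00817), CDK12 (-2.14, adjusted p = 2.62e-12), CDK13 (-0.80, adjusted p = 0.00025) and CCNK (-0.46, adjusted p = 0.000243). With the poly-A shift 14 of these 23 differences were called and 9 were not, the latter being 0.38 for CCNT1 and 0.025 for CCNK at 50 nM, -0.31 for MNAT1 and -0.36 for CCNT1 at 200 nM, -0.0096 for MNAT1, -0.28 for CDK9, 0.0086 for HEXIM1, -0.42 for CDK13 and -0.080 for CCNK at 800 nM. Of the 23, the HEXIM1 difference at 800 nM alone took the other sign. No group held enough arrays for a check of single arrays far from the rest, each having 3.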

How the results depend on the processing

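Of 3034 changes of single probe sets recomputed under alternatives other than leaving out an array, 2794 kept their side of the threshold, 77 lost the call, 99 gained it and 64 changed sign while called in at least 1 setting. A further 54 of the 2794, called in neither setting, also changed sign, 18 under the poly-A and 16 under the hybridization shift. All but 3 of the 64 came from the poly-A shift, and the cause was not tested. The precision of dim probe sets, among them 12 of the 26 in U2-OS and 16 in SJSA-1 below the activity criterion, is limited by their signal over background and by 3 arrays a group. The test of the methods gives no line difference, so it was not run for that, and the fit of all 24 arrays was not run for the comparisons that already use it. Replicate numbers did not pair the arrays, since same-numbered arrays of a line correlated between -0.43 and 0.32 in U2-OS and between -0.49 and 0.31 in SJSA-1 in their deviations from the group means. With the replicate number as a block the share called went to 0% for U2-OS at 50 nM and to 46.2%, from 65.4%, for the untreated lines, and the count moved by 0 to 2 probe sets in each other comparison.

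The share of the 26 probe sets called moved by over 1.5 times in the following cases, in which the share under a filter is of the probe sets that passed it. At 50 nM in U2-OS it was 3.85%, a single probe set, before any alternative. With active probe sets only the share was 7.14% for U2-OS at 50 nM and 78.6% for U2-OS from 200 to 800 nM. With a DMSO mean above log2(200) the share was 0% for U2-OS at 50 nM, 100% for U2-OS from 200 to 800 nM, 50% for SJSA-1 at 800 nM, 40% for the line difference at 200 nM and 100% for the untreated lines. With 1 probe set a gene the share was 10% for U2-OS at 50 nM. With quantile normalization again the share was 7.69% for U2-OS at 50 nM. With the poly-A shift the share was 0% for U2-OS at 50 nM, 38.5% for U2-OS at 200 nM, 19.2% for U2-OS from 50 to 200 nM, 38.5% for SJSA-1 from 50 to 200 nM, 15.4% for SJSA-1 from 200 to 800 nM and 57.7% for the line difference at 800 nM. With the hybridization shift the share was 26.9% for U2-OS at 50 nM. With array weights the share was 19.2% for U2-OS at 50 nM and 76.9% for U2-OS from 50 to 200 nM. With only the groups compared the share was 0% for U2-OS at 50 nM. With all 24 arrays in 1 fit the share was 7.69% for U2-OS at 50 nM. With a change of at least 2-fold required the share was 0% for U2-OS at 50 nM, 3.85% for U2-OS at 200 nM, 23.1% for U2-OS at 800 nM, 0% for U2-OS from 50 to 200 nM, 3.85% for U2-OS from 200 to 800 nM, 30.8% for SJSA-1 at 50 nM, 34.6% for SJSA-1 at 200 nM, 38.5% for SJSA-1 at 800 nM, 15.4% for SJSA-1 from 50 to 200 nM, 0% for SJSA-1 from 200 to 800 nM, 38.5% for the line difference at 50 nM, 46.2% for the line difference at 200 nM, 46.2% for the line difference at 800 nM and 7.69% for the untreated lines. With the unadjusted test of the methods the share was 19.2% for U2-OS at 50 nM. With the test of the methods after Benjamini-Hochberg the share was 0% for U2-OS at 50 nM, 26.9% for U2-OS at 200 nM, 0% for U2-OS from 50 to 200 nM, 23.1% for U2-OS from 200 to 800 nM and 15.4% for SJSA-1 from 200 to 800 nM. Leaving out 1 array moved the share called at 50 nM in U2-OS between 0% and 11.5% and the share of U2-OS pairs of probe sets called at 200 nM between 9.09% and 36.4%, and no other share by over 1.5 times.

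With the poly-A shift these changes, called before or after it, had the other sign, given by the leading probe set unless another is named. At 200 nM in U2-OS they were -0.31 for CCNH, -0.39 for CCNK, -0.42 for CCNK 11743735_a_at, -0.42 for CCNT2 11726081_a_at, -0.22 for CCNT2, -0.025 for CCNT2 11737161_a_at, -0.20 for CDK12 11751936_a_at, -0.53 for CDK13 11755318_s_at, -0.53 for CDK13 11761825_x_at, -0.20 for CDK7, -0.47 for CDK9 11720659_at, -0.47 for CDK9, -0.53 for CDK9 11720661_at, -0.17 for HEXIM1 11721003_at, -0.28 for HEXIM1 and -0.28 for MNAT1. At 800 nM in U2-OS they were -0.50 for CCNH, -0.53 for CCNK, -0.56 for CCNK 11743735_a_at, -0.29 for CCNT1, -0.20 for CCNT2 11726081_a_at, -0.28 for CDK12 11739636_s_at, -0.027 for CDK12, -0.24 for CDK12 11739639_at, -0.39 for CDK12 11751936_a_at, -0.84 for CDK13 11761825_x_at, -0.44 for CDK7, -0.081 for HEXIM1 11721003_at, -0.14 for HEXIM1 and -0.61 for MNAT1. At 50 nM in SJSA-1 they were -0.22 for CCNH, -0.055 for CCNK, -0.048 for CCNK 11743735_a_at, -0.38 for CDK7, -0.31 for CDK9 11720661_at and -0.38 for MNAT1. At 200 nM in SJSA-1 they were -0.46 for CCNK, -0.45 for CCNK 11743735_a_at, -0.44 for CCNT2 11737161_a_at and -0.11 for CDK9 11720661_at. At 800 nM in SJSA-1 they were -0.36 for CCNH, -0.17 for CDK9 11720661_at, -0.16 for HEXIM1 11721003_at and -0.13 for HEXIM1. In the line difference at 800 nM they were 0.030 for CDK13 11761825_x_at, 0.10 for HEXIM1 11721000_at and 0.0086 for HEXIM1. Between the untreated lines they were -0.13 for CCNH, -0.27 for CCNK, -0.28 for CCNK 11743735_a_at, -0.81 for CCNT2 11726081_a_at, -0.72 for CCNT2 11737161_a_at, -0.49 for CDK12 11739636_s_at, -0.60 for CDK12 11739637_a_at, -0.21 for CDK12, -0.63 for CDK12 11739639_at, -0.080 for CDK12 11745432_a_at, -0.88 for CDK12 11751936_a_at, -0.78 for CDK13 11761825_x_at, -0.71 for CDK7 and -0.45 for MNAT1. With the hybridization shift those that turned were -0.029 for CDK9 11720661_at at 50 nM in SJSA-1 and, in the line difference at 50 nM, -0.30 for MNAT1 and -0.38 for CDK7.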
